A study of Rattus norvegicus with 4 samples.

Results

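The genes described here are 8 secreted glycoproteins of fibrous and elastic matrix: fibronectin (Fn1), periostin (Postn), tenascin-C (Tnc), fibrillin-1 (Fbn1), fibrillin-2 (Fbn2), elastin (Eln), TGF-beta-induced protein (Tgfbi) and osteonectin (Sparc). They were chosen by symbol, and all 8 were found among the 24005 genes of the count table and passed the filter on low counts, which left 15282 genes for testing. PolyA RNA was sequenced from cartilage of Sprague Dawley rats, which are outbred; the animals were males of 8 to 12 weeks with a body weight of 140 to 230 g. The osteoarthritis group had 2 libraries. By the title and design text, its osteoarthritis was induced with monosodium iodoacetate, a glycolysis inhibitor that kills chondrocytes when injected into a joint. Both of its libraries also carry the treatment label XGS, the herbal preparation Xiaogu San, and no untreated osteoarthritis library was part of the comparison, so that the model and the preparation cannot be told apart. The control group had 2 libraries labelled healthy and control. The design text speaks of normal mice where the labels of all 4 libraries say rat, and whether species differed was not tested. The labels do not say whether libraries came from single or pooled animals or from separate ones, so the p-values cover only the spread among the 4 libraries, and this may be technical.

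Fibronectin is laid down by cells as fibrils through integrin receptors and serves as a scaffold for other matrix proteins. The fibrillins assemble into microfibrils, which store latent TGF-beta and guide the deposition of elastin into elastic fibres. Periostin, tenascin-C, TGF-beta-induced protein and osteonectin are matricellular proteins, which tune how cells hold on to collagen and fibronectin more than they bear load. Healthy articular cartilage is rich in fibronectin and poor in elastic fibres, whereas tendon, ligament, periosteum and vessel walls carry much of the periostin, tenascin-C and elastin of a limb.

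The libraries held 24492412 and 25994449 counts in osteoarthritis and 28156020 and 28270779 counts in control. More genes had a count in osteoarthritis, 19272 and 17725, than in the deeper control libraries, 14770 and 15739. Genes with exactly 1 count numbered 977 and 1219 in osteoarthritis and 126 and 190 in control. Detection of low counts thus differed between the groups, and its part in the fold changes of rare genes was not tested. Chondrocyte markers were detected in every library, and none of the 14 was at 0, but their summed level was 4066 and 6291 CPM (counts scaled to a common library size) in osteoarthritis, against 23676 and 35878 CPM in control. Most of the control sums was Col2a1, at 13919 and 26813 CPM, against 3431 and 385 CPM in osteoarthritis. By log2 fold change 11 of the 14 were negative and 3 positive, and 10 lay below both controls, beside 26.5% of all tested genes. The 3 positive ones, Acan, Col11a1 and Sox9, lay below both controls in osteoarthritis replicate 1 and above both in replicate 2. Genes of red cells and marrow summed to 1909 and 6743 CPM in osteoarthritis and to 124265 and 141896 CPM in control. Bone was followed with 12 osteoblast and osteocyte markers. Both osteoarthritis libraries were under both controls for 8 of these bone markers, beside 26.5% of all tested genes, and over both controls for 0. The 12 had a median log2 fold change of -3.60, with 11 negative and 1 positive. The positive one was Col1a1, at 20226 and 102855 CPM in osteoarthritis and 7108 and 33210 CPM in control. It made up most of the list's sums, which were 20312 and 103249.5 CPM in osteoarthritis and 8510 and 38945 CPM in control. All 12 were higher in control replicate 2 than in control replicate 1. In these bulk samples, fewer cells of a type and less RNA per cell cannot be told apart. The osteoarthritis libraries also differed from each other: 9 tendon and ligament markers summed to 813 CPM in osteoarthritis replicate 1 and 12986 CPM in replicate 2, against 2713 and 2727 CPM in control, and 10 adipocyte markers summed to 9452 and 130.4 CPM in osteoarthritis, against 1703 and 685 CPM in control. Of these markers, 8 of 9 for tendon and 0 of 10 for adipocytes were higher in osteoarthritis replicate 2 than in replicate 1. No tendon marker was at 0 in any library, and of the adipocyte markers Lep was, in control replicate 1. The controls differed from each other in 10 skeletal muscle markers, which summed to 2591 CPM in control replicate 1 and 131.9 CPM in control replicate 2. In osteoarthritis these summed to 142.3 and 369 CPM, and 1 of the 10 was higher in control replicate 2 than in control replicate 1. The part of dissected tissue in the results below was not tested, and the fold changes of the 8 genes and the medians of the partner lists are given with all libraries and without osteoarthritis replicate 1 or 2.

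The comparison asked how cartilage of the osteoarthritis group differed from healthy cartilage. Postn, Fbn1 and Fbn2 were higher in both osteoarthritis libraries than in both control libraries, while the libraries of the groups overlapped for Fn1, Tnc, Eln, Tgfbi and Sparc. None of the 8 passed the quasi-likelihood test of edgeR, adjusted by Benjamini-Hochberg over the 15282 genes, where the members' adjusted p-values ran from 0.0982 to 0.98. That test called 0 genes in either direction, or 0% of those tested, and its smallest adjusted p over all genes was 0.0824. At an unadjusted p under 0.05 it had 3 members higher and 0 lower, where 12.2% of all tested genes were higher and 11.2% lower. The 3 members whose groups did not overlap compare with 30.0% of all tested genes that lay above both controls and 26.5% below both. DESeq2 called the same 3 members higher and 0 lower, where it called 7.09% of the genes it tested higher and 7.93% lower. All 8 members had a positive fitted log2 fold change, as had 55.1% of all tested genes. The median was 2.06 over the members and 0.15 over all tested genes. Because the 8 genes were chosen with earlier results of these data known, these comparisons with all tested genes are descriptions only. Without osteoarthritis replicate 2 the median of the members was 0.65 and 5 of the 8 were positive.

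**Figure D1:**
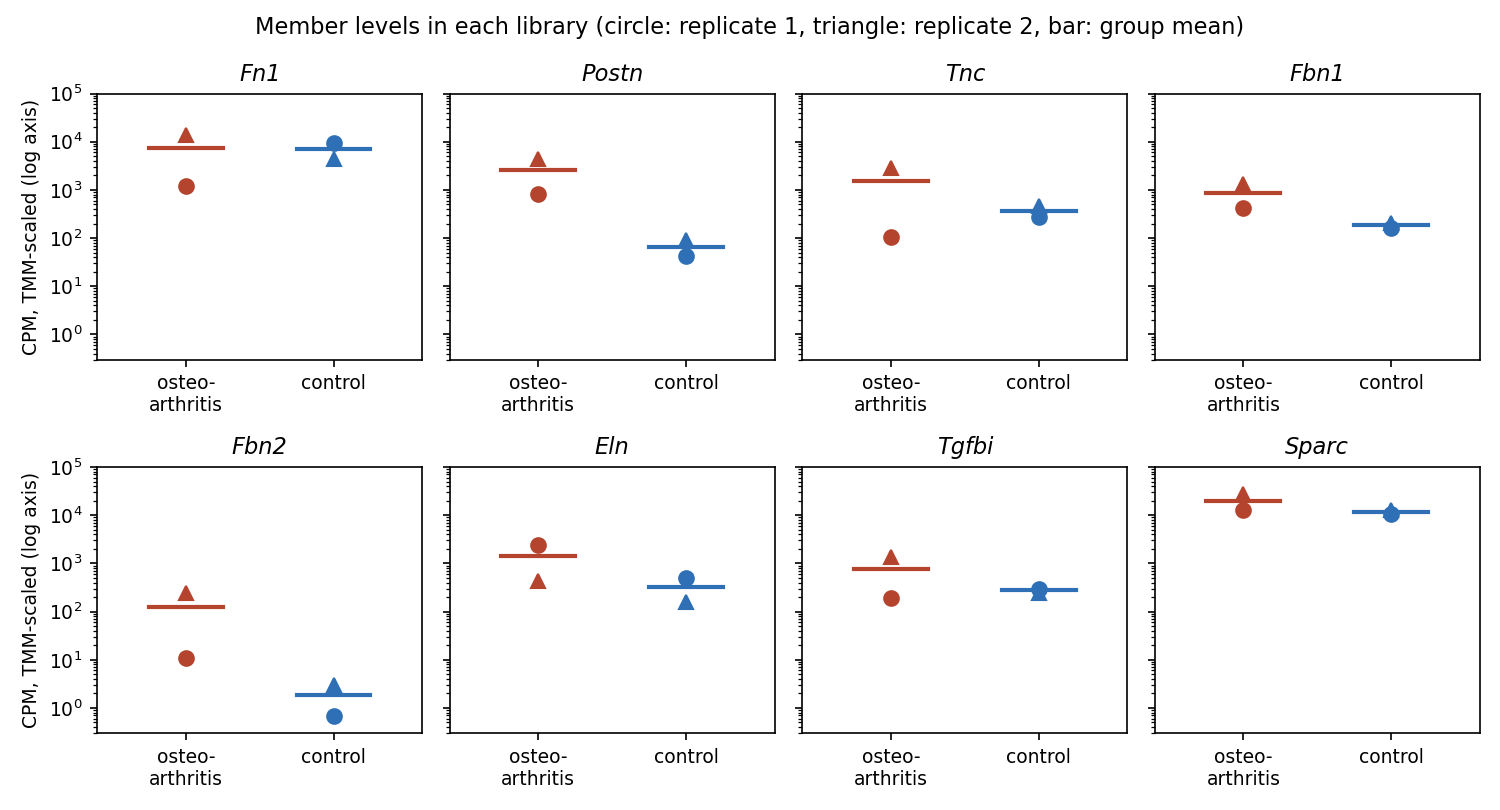
Level of each of the 8 genes in each library, in CPM with TMM-scaled library sizes on a log axis, osteoarthritis on the left and control on the right of each panel; circles are replicate 1, triangles replicate 2 and bars group means. The groups stand apart for Postn, Fbn1 and Fbn2, and Fn1, Tnc and Tgfbi have an osteoarthritis library on either side of the controls.

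Postn encodes periostin, which binds collagen and fibronectin and helps collagen crosslinking in periosteum, tendon and ligament. It had 823 and 4449 CPM in the osteoarthritis libraries and 41.9 and 91.7 CPM in the control libraries. Both osteoarthritis libraries therefore lay well above both controls, although they differed 5.41-fold from each other. The group means were 2636 ± 2564 CPM in osteoarthritis and 66.8 ± 35.3 CPM in control (SD, n = 2 each), and the log2 fold change was 5.30 ± 1.09 (SE; edgeR adjusted p = 0.0982). DESeq2 gave an adjusted p of 1.74e-08. Without osteoarthritis replicate 2 the log2 fold change was 3.62 and without osteoarthritis replicate 1 it was 5.99. It was 4.76 without control replicate 1 and 5.98 without control replicate 2.

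Fbn2 encodes fibrillin-2, the microfibril protein of fetal and early postnatal tissue. It was the rarest of the 8, with 325 and 5563 reads in osteoarthritis and 19 and 79 reads in control. These were 11.02 and 240.4 CPM in osteoarthritis, against 0.669 and 3.03 CPM in control. Each osteoarthritis library exceeded both controls, and within the osteoarthritis group the second library was 21.8 times the first. The log2 fold change was 6.09 ± 1.70 (SE; edgeR adjusted p = 0.139, DESeq2 adjusted p = 1.66e-05). It was 2.57 without osteoarthritis replicate 2 and 6.95 without osteoarthritis replicate 1.

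Fbn1 encodes fibrillin-1, the main microfibril protein after birth. It had 422 and 1310 CPM in osteoarthritis and 162 and 207 CPM in control. Among the 3 genes whose groups did not overlap it varied least, 3.11-fold between the osteoarthritis libraries and 1.28-fold between the controls. The means were 866 ± 628 CPM in osteoarthritis and 185 ± 31.7 CPM in control (SD, n = 2 each), and the log2 fold change was 2.23 ± 0.66 (SE; edgeR adjusted p = 0.151, DESeq2 adjusted p = 0.00634). It was 1.19 without osteoarthritis replicate 2 and 2.77 without osteoarthritis replicate 1.

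Eln encodes tropoelastin, the soluble precursor of elastin. It had 2391 and 441 CPM in osteoarthritis and 498 and 161 CPM in control. It was the only member with a higher level in osteoarthritis replicate 1 than in replicate 2, and osteoarthritis replicate 2 lay between the controls. The log2 fold change was 2.10 ± 0.99 (SE; edgeR adjusted p = 0.278), and it was 0.40 without osteoarthritis replicate 1 and 2.86 without osteoarthritis replicate 2. Smooth muscle and pericyte markers, 11 genes such as Myh11, the heavy chain of smooth muscle myosin, summed to 5881 and 3646 CPM in osteoarthritis and to 2886 and 1206 CPM in control. None of them was at 0, and 7 of the 11 lay above both controls in both osteoarthritis libraries, beside 30.0% of all tested genes. Myh11 itself had 1266 and 422 CPM in osteoarthritis and 386 and 89.4 CPM in control. In both groups the library with more Eln also had more Myh11, a gene picked after its values were seen. All 11 markers were higher in control replicate 1 than in control replicate 2, but only 7 of the 11 were higher in osteoarthritis replicate 1 than in replicate 2, and Rgs5, Pdgfrb, Cspg4 and Notch3 ran the other way. The part of vessel wall in the level of Eln was not tested.

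Fn1 encodes fibronectin. It had 1178 and 13447 CPM in the osteoarthritis libraries and 9440 and 4437 CPM in the control libraries. The osteoarthritis libraries stood on opposite sides of both controls, and their 11.4-fold difference was exceeded by 2.95% of all tested genes. The means were 7312 ± 8675 CPM in osteoarthritis and 6939 ± 3537 CPM in control (SD, n = 2 each), and the log2 fold change was 0.08 ± 1.19 (SE; edgeR adjusted p = 0.98). That value is 0.07 below the median of all tested genes, and its sign turned when libraries were scaled by size alone (-0.024) or by upper quartile factors (-0.079). Without osteoarthritis replicate 2 the log2 fold change of Fn1 was -2.56, and without osteoarthritis replicate 1 it was 0.92.

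Tnc encodes tenascin-C, a hexameric glycoprotein of tendon, perichondrium and healing tissue. It had 104 and 2884 CPM in osteoarthritis and 270.0 and 469 CPM in control. The pattern was that of Fn1, with osteoarthritis replicate 1 below both controls and replicate 2 above both, and the 27.7-fold difference between them was exceeded by 0.962% of all tested genes. The log2 fold change was 2.01 ± 1.39 (SE; edgeR adjusted p = 0.439). It was -1.83 without osteoarthritis replicate 2 and 2.90 without osteoarthritis replicate 1.

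Tgfbi, whose product binds collagen and integrins and is induced by TGF-beta, had 196 and 1361 CPM in osteoarthritis and 300.3 and 249 CPM in control. Here too osteoarthritis replicate 1 lay below both controls and replicate 2 above both. The log2 fold change was 1.503 ± 0.91 (SE; edgeR adjusted p = 0.381), and it was -0.49 without osteoarthritis replicate 2 and 2.26 without osteoarthritis replicate 1. Sparc, osteonectin, binds collagen and calcium and is abundant in bone and fibrous tissue. It had 12681 and 27392 CPM in osteoarthritis and 10360 and 13065 CPM in control, so that osteoarthritis replicate 1 lay between the controls. Its log2 fold change was 0.77 ± 0.78 (SE; edgeR adjusted p = 0.604), with 0.11 without osteoarthritis replicate 2 and 1.17 without osteoarthritis replicate 1. Most of the bone markers named above were lower in osteoarthritis, and the part of bone in the level of Sparc was not tested.

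**Figure D2:**
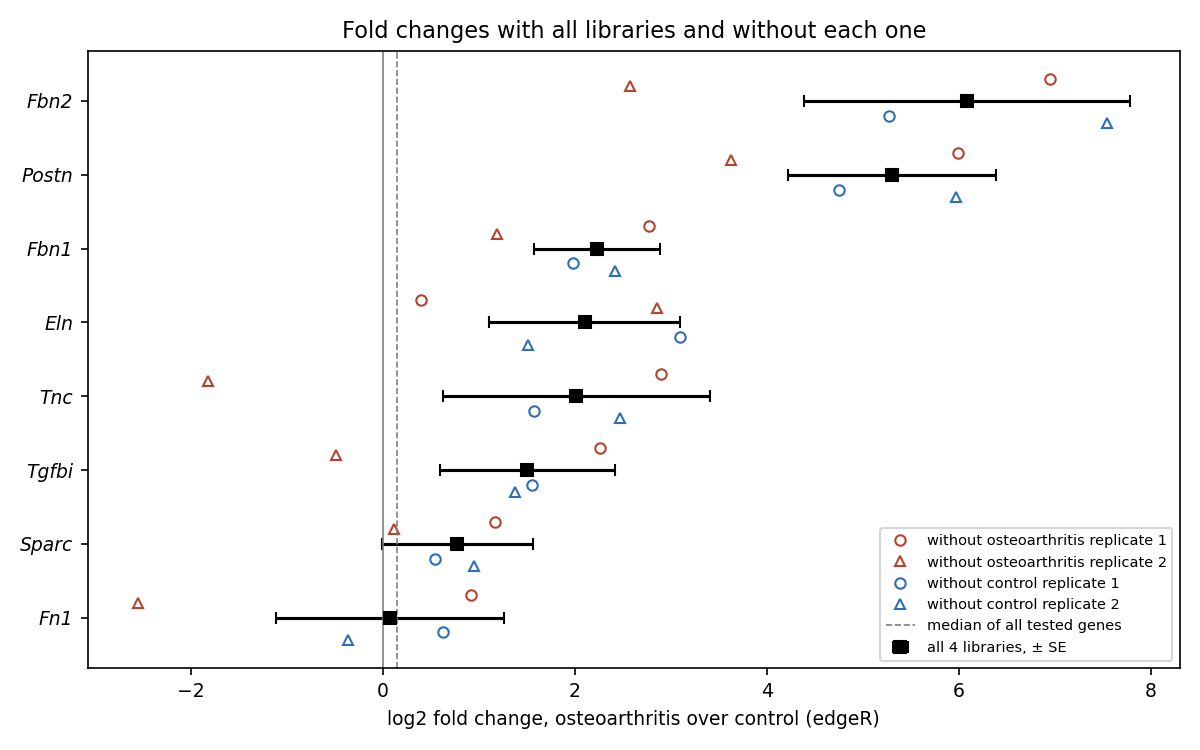
Log2 fold change of each gene, osteoarthritis over control, by edgeR with all 4 libraries (squares with SE) and without each library in turn (open symbols); the dashed line is the median of all tested genes, 0.15. Without osteoarthritis replicate 2, Fn1, Tnc and Tgfbi moved to -2.56, -1.83 and -0.49, while Postn, Fbn2 and Fbn1 stayed at 3.62, 2.57 and 1.19.

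Against the mean log2 CPM of the controls, osteoarthritis replicate 2 was higher for all 8 genes, from 0.64 for Eln to 7.40 for Fbn2. Osteoarthritis replicate 1 was higher for Fbn2, at 2.95, Postn, at 3.73, Eln, at 3.08, Fbn1, at 1.20, and Sparc, at 0.12, and lower for Fn1, at -2.46, Tnc, at -1.77, and Tgfbi, at -0.48. The median log2 difference between the osteoarthritis libraries, replicate 2 minus replicate 1, was 2.62 over the members and 0.03 over all tested genes, and 7 of the 8 members were higher in replicate 2. The same difference had a median of 4.01 over the 9 tendon and ligament markers and -8.15 over the 10 adipocyte markers, and the part of either tissue in the members' split was not tested. Between the controls, replicate 2 minus replicate 1, the members' median was 0.34.

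**Figure D3:**
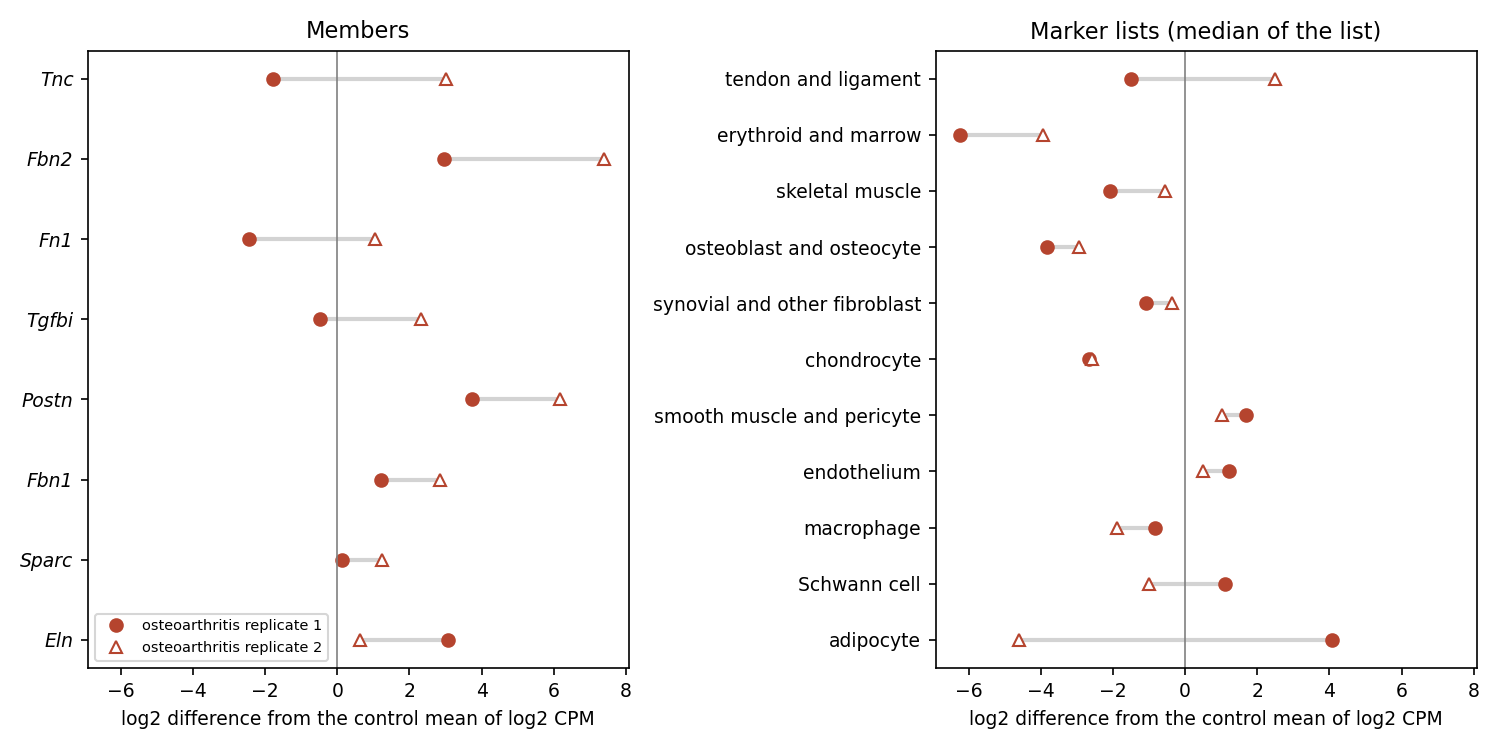
Each osteoarthritis library against the mean log2 CPM of the controls, as a log2 difference, for the 8 genes (left) and as the median of each marker list (right); filled circles are replicate 1 and open triangles replicate 2. Fn1, Tnc and Tgfbi lie on both sides of 0, whereas Postn, Fbn1, Fbn2, Eln and Sparc lie above 0 in both libraries. Of the marker lists, those on both sides of 0 are tendon and ligament at -1.504 and 2.50, adipocyte at 4.06 and -4.60, and Schwann cell at 1.096 and -1.001.

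Levels were compared between genes with the deposited FPKM values (fragments scaled to gene length and to the library's total), which carry no TMM scaling. Sparc was the highest member in every library, at 7363 and 11763 FPKM in osteoarthritis and 5043 and 5812 FPKM in control. By FPKM it ranked 6 and 2 among all genes in the osteoarthritis libraries and 14 and 13 in the controls. Fn1 had 179 and 1513 FPKM in osteoarthritis and 1204 and 517 FPKM in control, where it came next after Sparc.

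Postn had 309.9 and 1240 FPKM in osteoarthritis and 13.2 and 26.5 FPKM in control, and its rank among all genes was 201 and 29 in osteoarthritis, against 4787 and 2515 in control. In osteoarthritis its range overlapped those of Fn1, Eln, Tgfbi and Tnc. In control its range overlapped that of Fbn1, which had 52.7 and 121 FPKM in osteoarthritis and 17.0 and 19.8 FPKM in control. Eln had 802 and 109 FPKM in osteoarthritis and 140.1 and 41.3 FPKM in control. Tgfbi had 87.5 and 449.8 FPKM in osteoarthritis and 113 and 85.2 FPKM in control. Tnc had 18.1 and 371 FPKM in osteoarthritis and 39.3 and 62.5 FPKM in control. The ranges of Eln and Tgfbi overlapped in both groups, as did those of Eln and Tnc. Fbn2 was the lowest member in every library, at 1.53 and 24.7 FPKM in osteoarthritis and 0.0779 and 0.323 FPKM in control.

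Ratios of FPKM within a library do not depend on how libraries are scaled. Fbn2 over Fbn1 was 0.0291 and 0.204 in osteoarthritis and 0.00459 and 0.0163 in control, so that Fbn1 was the more abundant fibrillin in every library and the share of Fbn2 was larger in both osteoarthritis libraries. Postn over Tgfbi, a pair of related fasciclin-domain proteins, was 3.54 and 2.76 in osteoarthritis and 0.117 and 0.311 in control. Periostin was thus the more abundant transcript of the pair in osteoarthritis and TGF-beta-induced protein in control. These 2 ratios, of the 6 computed, did not overlap between the groups. Each holds Postn or Fbn2, whose own groups did not overlap. No share over other gene pairs was computed, and among single genes 30.0% lay above both controls and 26.5% below both. With 2 libraries in each group the smallest exact permutation p is 0.333, so the count of ratios is a description only.

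The other 4 ratios overlapped. Fn1 over Col2a1, the main cartilage collagen, was 0.217 and 22.0 in osteoarthritis and 0.428 and 0.104 in control. Sparc over Col1a1, the main collagen of bone and tendon, was 1.76 and 0.748 in osteoarthritis and 4.10 and 1.11 in control. Eln over Fbn1 was 15.2 and 0.904 in osteoarthritis and 8.25 and 2.08 in control, and Tnc over Fn1 was 0.101 and 0.245 in osteoarthritis and 0.0327 and 0.121 in control.

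The stretches just before the start site given in RefSeq's promoter table are shown for Postn and Fbn1, whose groups did not overlap, and for Sparc, the most abundant member. RefSeq promoter windows of rat build GRCr8 were matched for 6 of the 8 genes. The 250 bases before the start lay at chr2:140677811-140678060 (plus strand) for Postn, chr3:133203391-133203640 (minus strand) for Fbn1 and chr10:40038817-40039066 (minus strand) for Sparc. The windows of Postn and Fbn1 lie inside the RefSeq gene spans, which begin further upstream, at 140677774 for Postn and at 133204277 for Fbn1 on the minus strand. The windows read 5′ to 3′ as follows, with matches to any of 5 motifs in capitals.
Postn: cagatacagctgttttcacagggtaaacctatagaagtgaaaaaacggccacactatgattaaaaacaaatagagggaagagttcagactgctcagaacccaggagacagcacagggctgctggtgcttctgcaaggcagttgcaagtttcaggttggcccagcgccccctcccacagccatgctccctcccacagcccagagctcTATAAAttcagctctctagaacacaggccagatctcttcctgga
Fbn1: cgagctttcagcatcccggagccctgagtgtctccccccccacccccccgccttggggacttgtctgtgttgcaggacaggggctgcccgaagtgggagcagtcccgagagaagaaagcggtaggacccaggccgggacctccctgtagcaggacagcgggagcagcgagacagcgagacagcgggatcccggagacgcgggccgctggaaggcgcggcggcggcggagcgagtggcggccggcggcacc
Sparc: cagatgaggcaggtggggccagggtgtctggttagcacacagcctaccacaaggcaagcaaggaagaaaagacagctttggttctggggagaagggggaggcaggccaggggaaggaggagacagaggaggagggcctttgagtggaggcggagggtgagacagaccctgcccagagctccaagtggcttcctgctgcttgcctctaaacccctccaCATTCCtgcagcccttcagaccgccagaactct
The motifs, searched on both strands, were TATAAA (the TATA box), then CCAAT (bound by NF-Y), then GGGCGG (bound by Sp1), then TGANTCA (bound by AP-1) and lastly GGAATG (bound by TEAD factors), and no matches overlapped. Postn held TATAAA, which 12.9% of the 33469 RefSeq windows of this length hold, with its first base 44 bases before the start. Sparc held GGAATG, on the opposite strand, as do 12.1% of windows, and Fbn1 held none of the 5. The G and C content was 50.8% for Postn, 71.2% for Fbn1 and 60.0% for Sparc. The CCAAT motif, found in 34.0% of windows, and the AP-1 motif, found in 6.34%, were in none of the 6 members' windows. The Sp1 motif, found in 30.5%, was in those of Tnc and Tgfbi. Of the windows not printed, that of Tnc also held TATAAA and that of Fbn2 also held GGAATG.

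The genes with the most similar profile were found by the Euclidean distance of centred log2 CPM over the 4 libraries, among 9703 tested genes with a mean of at least 10 CPM. With 4 points each this is a description of these libraries. Nearest to Fbn1 were Arhgef12, at a distance of 0.0612, and Rcn1, a calcium-binding protein of the secretory pathway, at 0.103. Nearest to Sparc were Copb1 and Tm9sf3, both of Golgi transport, at 0.0589 and 0.0619. Nearest to Tgfbi were Abi3bp, a matrix protein, at 0.0986, and Zfp354c, a zinc finger gene, at 0.102.

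Profiles near Fn1 were those of Osbp2 and Ak4, an adenylate kinase of mitochondria, at 0.195 and 0.3. Near Eln were Itga7, a laminin receptor subunit of muscle, at 0.221, and Pcdh19, a protocadherin, at 0.261. Itga7 had 198 and 43.5 CPM in osteoarthritis and 50.02 and 14.96 CPM in control. Near Tnc were Gpc1, a cell surface proteoglycan, at 0.535, and Col11a1, a cartilage fibril collagen, at 0.575. For Postn and Fbn2 the nearest distances were larger than for the other members, Postn being little further off than Tnc. This distance also grows with the size of a gene's differences between libraries, which were large for both. Irs1, an adaptor of the insulin receptor, was 0.773 from Postn and 1.32 from Fbn2, and LOC102553715 was 0.596 from Postn. Among the members themselves the shortest distance was 1.29, between Tgfbi and Sparc, and the longest 6.37, between Fbn2 and Eln.

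Genes that build or bind the same structures were read from fixed lists, and none of their members passed edgeR's test over all genes, in which 0% were called. Of 25 tested partners of elastic fibres and microfibrils, 20 had a positive log2 fold change, beside 55.1% of all tested genes, 10 lay above both controls and 3 below both, beside 30.0% and 26.5% of all tested genes, and the median was 0.46 with all libraries, 1.06 without osteoarthritis replicate 1 and 0.19 without osteoarthritis replicate 2. Fbln2, fibulin-2, which bridges microfibrils and elastin, had 302 and 315 CPM in osteoarthritis and 71.8 and 60.0 CPM in control (log2 fold change 2.23 ± 0.35 SE, edgeR adjusted p = 0.0835). Ltbp1, which tethers latent TGF-beta to microfibrils, had 128 and 131 CPM in osteoarthritis and 40.4 and 34.8 CPM in control (1.78 ± 0.31, adjusted p = 0.0858). Mfap5, a small microfibril protein, had 117 and 212 CPM in osteoarthritis and 17.4 and 39.2 CPM in control (2.54 ± 0.56, adjusted p = 0.109). The osteoarthritis libraries lay close to each other for Fbln2 and Ltbp1, and well above the controls. Both were named for their small unadjusted p in the edgeR test, a choice that favours genes with close libraries. Over the list, the median log2 difference of osteoarthritis replicate 2 minus replicate 1 was 0.86.

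Of 17 fibril collagens and their assembly partners, 15 had a positive log2 fold change, 9 lay above both controls and 1 below both. The shares of all tested genes were 55.1% positive, 30.0% above both and 26.5% below both. The list's median was 1.51 with all libraries, 2.03 without osteoarthritis replicate 1 and 0.35 without osteoarthritis replicate 2. The gene below both was PCOLCE2, which enhances procollagen processing, at 6.07 and 7.35 CPM in osteoarthritis and 133 and 118 CPM in control (-4.23 ± 0.35 SE, edgeR adjusted p = 0.0824). Col5a3, a chain of type V collagen, had 507 and 816 CPM in osteoarthritis and 127 and 154 CPM in control (2.24 ± 0.45, adjusted p = 0.0982). Tll1, a protease that trims procollagen, was at 2.03 ± 0.62 (adjusted p = 0.154).

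Of 19 tested matricellular relatives, 15 had a positive log2 fold change, 4 lay above both controls and 2 below both. Over all tested genes, 55.1% were positive, 30.0% above both and 26.5% below both. The list's median was 1.19 with all libraries, 1.72 without osteoarthritis replicate 1 and -0.80 without osteoarthritis replicate 2, where 6 of the 19 were positive. Their median difference between the osteoarthritis libraries, replicate 2 minus replicate 1, was 3.46. Wisp1, a member of the CCN family, had 3.26 and 50.7 CPM in osteoarthritis and 0.774 and 1.04 CPM in control (4.89 ± 1.38 SE, edgeR adjusted p = 0.141), and its log2 fold change was 1.84 without osteoarthritis replicate 2. Cyr61, of the same family, was at 1.92 ± 0.52 (adjusted p = 0.133). Stab2, a scavenger receptor and no matrix protein, was at -3.31 ± 0.88 (adjusted p = 0.13).

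Of 18 integrin and syndecan receptors, 15 had a positive log2 fold change, 5 lay above both controls and 1 below both. Among all tested genes the shares were 55.1%, 30.0% and 26.5% in the same order. The list's median was 0.75 with all libraries, 1.16 without osteoarthritis replicate 1 and -0.12 without osteoarthritis replicate 2, where 8 of the 18 were positive. Itga9, an integrin chain that binds tenascin-C, had 81.8 and 125 CPM in osteoarthritis and 29.6 and 28.7 CPM in control (1.83 ± 0.35 SE, edgeR adjusted p = 0.0923). Itgb1, the shared beta chain of most fibronectin and collagen receptors, was at 1.34 ± 0.50 (adjusted p = 0.197), and Sdc3, syndecan-3, at -1.51 ± 0.44 (adjusted p = 0.147). Of 10 TGF-beta ligands, receptors and SMAD genes, 9 had a positive log2 fold change, 5 lay above both controls and 0 below both. All tested genes gave 55.1%, 30.0% and 26.5% for these shares. The list's median was 0.66 with all libraries, 1.07 without osteoarthritis replicate 1 and 0.35 without osteoarthritis replicate 2, where 6 of the 10 were positive. Tgfb2 and Tgfb3, both ligands, were at 1.87 ± 0.41 (adjusted p = 0.106) and 1.99 ± 0.66 (adjusted p = 0.172), and Tgfbr3, a co-receptor, at 1.10 ± 0.37 (adjusted p = 0.177).

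The list of proteases went both ways. Of 17 tested genes, 10 had a positive log2 fold change, 7 lay above both controls and 5 below both. For all tested genes these shares were 55.1%, 30.0% and 26.5%. The list's median was 0.28 with all libraries, 0.65 without osteoarthritis replicate 1 and -0.31 without osteoarthritis replicate 2, where 8 of the 17 were positive. Mmp9, a gelatinase of osteoclasts and neutrophils, had 3.80 and 25.3 CPM in osteoarthritis and 177 and 489 CPM in control (-4.52 ± 1.10 SE, edgeR adjusted p = 0.118). Meltf, a membrane iron-binding protein that is not itself a protease, was at -5.28 ± 1.29 (adjusted p = 0.118), and Adamts4, an aggrecanase, at 1.57 ± 0.43 (adjusted p = 0.136). Red cell and marrow genes, which include those of neutrophils, were lower in the same libraries as Mmp9, and their part in its level was not tested.

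**Figure D4:**
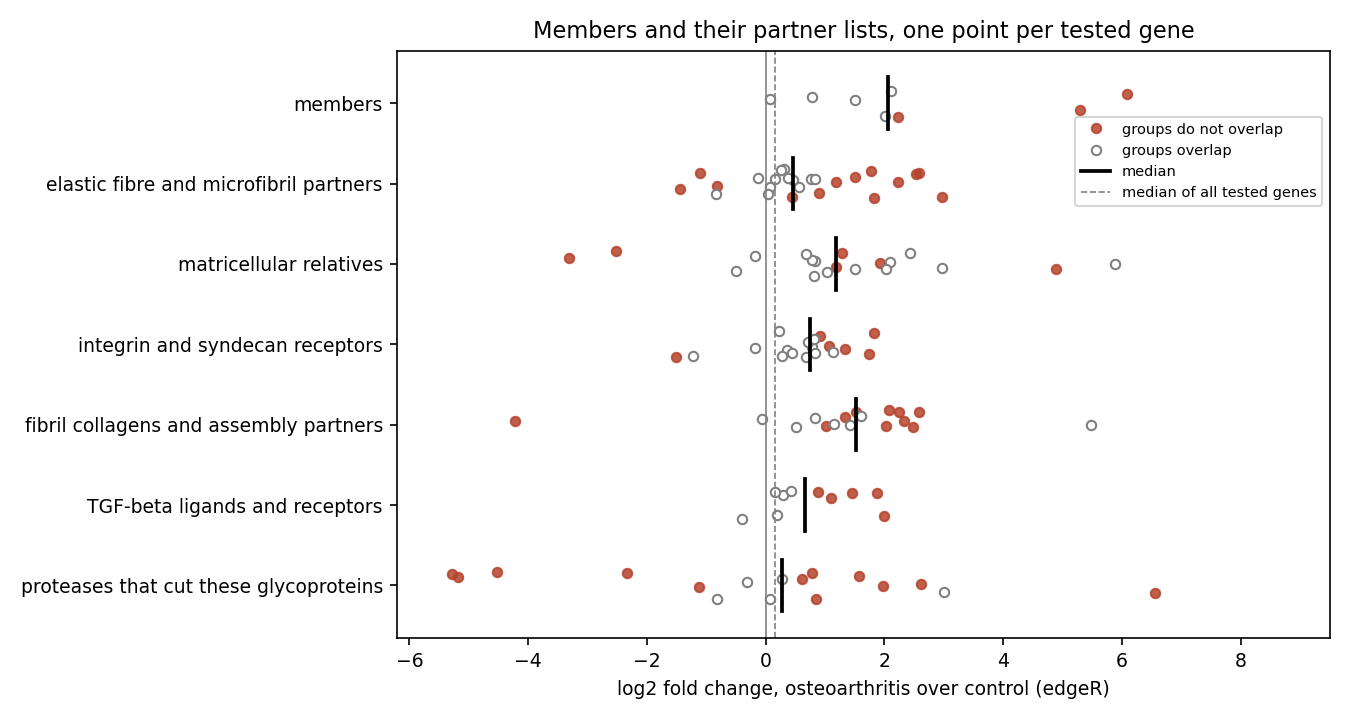
Log2 fold change of each tested gene, osteoarthritis over control, for the 8 genes and for each list of partners; filled points are genes whose groups do not overlap, bars are list medians and the dashed line is the median of all tested genes. The medians are 2.06 for the 8 genes, 1.51 for the collagens, 1.19 for the matricellular relatives and 0.28 to 0.75 for the other lists, with all libraries; Mmp12, with 0 counts in both controls, is drawn at its lower bound, at least 94.7-fold higher against a floor of 3 counts per library (3.38-fold for replicate 1, with 11 counts, and 186-fold for replicate 2, with 475).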

How the data were processed

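The authors deposited raw read counts per gene symbol and FPKM values of the same libraries. Per the submitters' processing notes, reads were trimmed with fastp and aligned with TopHat, with no versions, and the build named is hg38, a human build, although the symbols are rat. The sources used here do not give the counting tool or strandedness, so overlapping genes may share reads. Each of the 67506 deposited FPKM values above 0 was the count divided by a fixed length per gene and by the library total (largest relative difference 6.22e-15), so FPKM is no second measurement.

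Samples were grouped by the disease state label. Counts were filtered with filterByExpr, scaled by TMM and tested with edgeR 4.0.16 (quasi-likelihood F test, two-sided, Benjamini-Hochberg, threshold 0.05) in R 4.3.3. Standard errors were the log2 fold change over the root of F. DESeq2 1.42.0 and limma 3.58.1 served as alternatives, with other scalings, filters and fits without each library, which assume that a group's lone library varies as the other group does. For each of the 8 genes the osteoarthritis libraries differed more from each other than the controls did. Only effect sizes are therefore given for the fits without 1 library. No exact permutation test was run, since with 2 libraries in each group its smallest p is 0.333. The medians of the lists without each library were added after the data were seen. The functions were tested on simulated data. Depth was 24492412 to 28270779 counts per library, and intervals on replicates do not cover the unknown origin of the libraries. The 8 genes and all lists were chosen with earlier results of these data known. Of each partner list, up to 3 tested genes with the smallest unadjusted p were named, and for each of the 8 genes the 2 nearest profiles, of which 1 is not reported here. Myh11, Lep, Rgs5, Pdgfrb, Cspg4, Notch3, Acan, Sox9, Col2a1, Col1a1 and Mmp12 were named in addition, and Myh11, Mmp12, Lep, Rgs5, Pdgfrb, Cspg4, Notch3, Acan and Sox9 were chosen after their values were seen. Figures were drawn with matplotlib 3.10.9. RefSeq tables of GRCr8 gave names and promoter windows only.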

Additional observations from a re-analysis of the deposited data

How the results depend on the processing

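Of 120 values of the 8 genes under 15 alternatives, 10 changed sign and the rest kept their direction. The fits without 1 library are among the 15 and are read for direction and size only. The sign of Fn1 changed with at least 10 counts in every library (-0.029), library size alone (-0.024), upper quartile factors (-0.079), limma-voom (-0.66), limma-trend on log2(FPKM + 1) (-0.60) and log2(FPKM + 0.1) (-0.60); the causes were not tested. Without each library in turn, Fn1 ran from -2.56 to 0.92, Tnc from -1.83 to 2.90, Tgfbi from -0.49 to 2.26, Eln from 0.40 to 3.10, Sparc from 0.11 to 1.17, Fbn1 from 1.19 to 2.77, Fbn2 from 2.57 to 7.54 and Postn from 3.62 to 5.99, each time lowest without an osteoarthritis library. The median of the members ran from 0.65 without osteoarthritis replicate 2 to 2.52 without osteoarthritis replicate 1, and from 1.39 to 2.09 under the other settings. Scaling moved the median of all tested genes, 0.15 with TMM, to 0.27 with library size alone and 0.05 with upper quartile factors. Against 0 genes called higher and 0 lower, DESeq2 called 1129 and 1264, the likelihood ratio test 965 and 978, the fit with no filter 677 and 751, and the fit with at least 10 counts in every library 20 and 109; without 1 library the counts ran from 0 to 1069 higher and from 0 to 949 lower. Postn, Fbn1 and Fbn2 passed with DESeq2, the likelihood ratio test and no filter. No paired analysis was possible because the labels give no pairing between osteoarthritis and control libraries. The replicate numbers follow the order of the samples within each group and do not link the groups.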
